A study of Mus musculus with 18 samples.

Results

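Macrophages grown with plasma of mice lacking both apolipoprotein E and stabilin-2 were compared with macrophages grown with plasma of wild-type mice, over all array rows that carry a gene symbol. The samples were chosen by their titles: 6 AS2 arrays and 4 WT arrays, 10 of the 18 arrays of the series. The cells of every array were mouse bone marrow-derived macrophages, grown from femoral marrow in DMEM with 10% fetal calf serum, penicillin, streptavidin (as the labels spell it) and M-CSF at 30 ng/mL. On day 4 that medium gave way to DMEM with 10% plasma, and total RNA was taken after 48 h with plasma, on day 6. The WT donors were wild-type C57BL/6J mice and the AS2 donors ApoE-Stab2-KO mice of the C57BL/6J strain. ApoE plasma (5 arrays) from ApoE-KO mice and AS1 plasma (3 arrays) from ApoE-Stab1-KO mice are used here to place the AS2 levels. All donors had received a Western diet for 8 weeks. The knockouts belong to the plasma donors, so the Apoe, Stab1 and Stab2 levels of the macrophages do not check the labels. WT and AS2 donors differ in 2 genes, and the effect of each gene cannot be told apart in this comparison alone.

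Apolipoprotein E carries lipoprotein remnants to receptors that clear them, and mice without it accumulate cholesterol-rich remnants in plasma, the more so on a Western diet. Stabilin-2 is a scavenger receptor of liver and spleen sinusoidal endothelium that removes hyaluronan and many other ligands from blood, so plasma of mice without it holds molecules that would otherwise be cleared. Macrophages sense plasma through scavenger receptors, lipid-sensing nuclear receptors, growth factor receptors and stress pathways, and their response to cholesterol-loaded plasma is central to atherosclerosis.

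Levels below are log2 values made by RMA, on which a difference of 1 is 2-fold; they are compared between arrays for the same gene and not between genes. Of 24705 rows, 2137 were higher (8.65%) and 2272 lower (9.2%) with AS2 than with WT plasma at an adjusted p under 0.05 (limma, Benjamini-Hochberg over all rows). These 2 shares are the background for every count of list members against WT plasma below. At least 2-fold differences were found in 438 of these rows (1.77%), 304 higher (1.23%) and 134 lower (0.542%). All 6 AS2 arrays lay above all 4 WT arrays in 2077 rows (8.41%) and below them in 2122 rows (8.59%). Across rows, which are not independent replicates, AS2 arrays correlated with each other at r from 0.9945 to 0.9976 and with WT arrays at r from 0.9809 to 0.9873. The plot of the difference against the mean level shows all rows, with increases of at least 2-fold outnumbering decreases of that size. In bulk RNA, fewer cells of a type and less RNA per cell cannot be told apart. Nothing in the labels tells if arrays of a group came from different cultures, plasma donors or pools; p-values here refer to the spread from array to array, which could be technical.

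**Figure D1:**
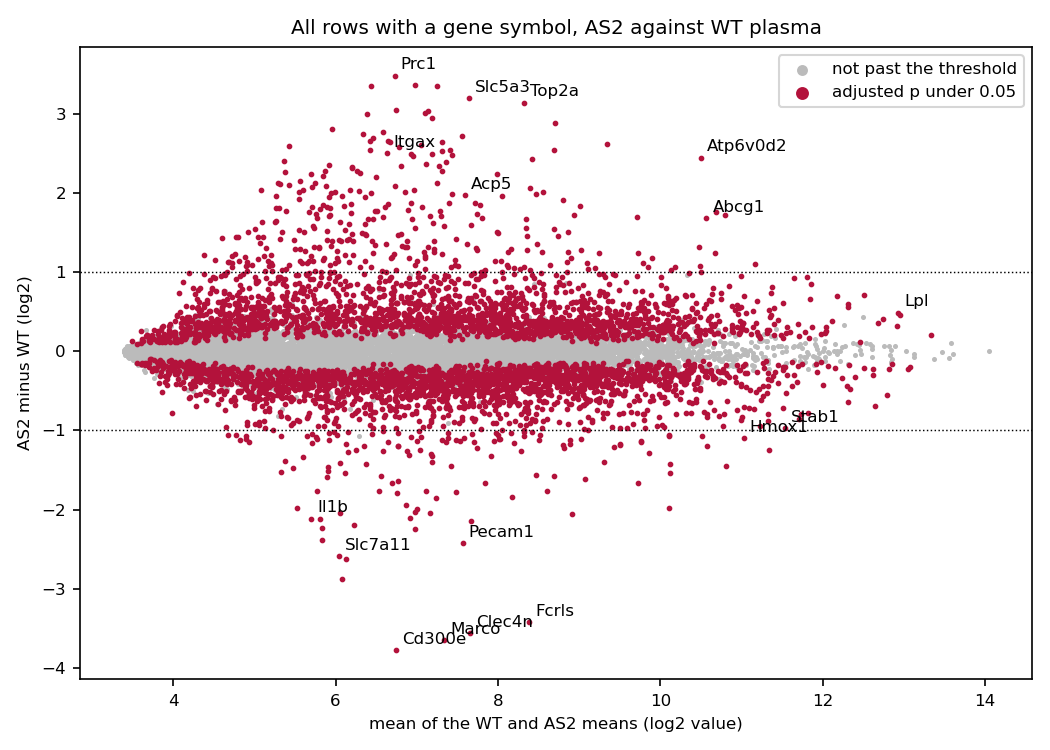
Difference between AS2 and WT means (log2, vertical) against their mean level (log2, horizontal) for 24705 rows, 1 point per row, with red for an adjusted p under 0.05 and dotted lines at 2-fold. Prc1 and Cd300e mark the top and the bottom of the named genes, at 3.49 and -3.78.

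Genes of mitosis and cytokinesis, which build the spindle and divide the cell, held most of the largest increases. All 44 measured members rose, with a median difference of 2.30 against -0.0068 over all rows, and 43 of them rose at least 2-fold. Prc1, which bundles spindle midzone microtubules, was 5.06, 4.82, 4.82 and 5.23 in the WT arrays and 8.34, 8.44 and 8.62 as lowest, median and highest of the AS2 arrays, an 11.2-fold increase (adjusted p = 3.37e-13). The nearest AS2 and WT arrays were 3.10 apart. Anln, the contractile ring scaffold anillin, was 5.49, 5.24, 5.15 and 5.31 with WT and 8.63, 8.65 and 8.78 as lowest, median and highest with AS2 plasma (3.37, adjusted p = 9.8e-13). Ccna2, the cyclin of S phase and mitotic entry, was 5.42, 5.15, 5.70 and 5.98 with WT and 8.85, 8.94 and 8.99 with AS2 plasma in the same order (3.36). The groups of both genes were far apart, and the AS2 arrays varied less than the WT arrays. Bub1, a spindle checkpoint kinase, Top2a, which untangles DNA, and Ccnb2, a mitotic cyclin, rose by 3.36, 3.15 and 3.06. Ect2, the exchange factor that starts furrowing, rose by 3.05 ± 0.082 (SE) with an adjusted p of 8.35e-14. The microtubule proteins Nusap1, Hmmr and Tpx2 rose by 3.02, 3.01 and 2.65, and the motor genes Kif11 and Kif20a by 2.96 and 2.58. Knl1 and Ndc80, which hold microtubules at the kinetochore, rose by 2.78 and 2.72.

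Mki67, the proliferation marker Ki-67, was 7.96, 7.92, 8.09 and 8.14 with WT and 10.60, 10.65 and 10.75 as lowest, median and highest with AS2 plasma, a 6.18-fold increase (adjusted p = 5.53e-14). Its mean was 10.16 with ApoE and 10.55 with AS1 plasma. The AS2 level was above the ApoE level by 0.50 (adjusted p = 1.76e-05), and its difference from AS1, 0.11, missed the threshold (adjusted p = 0.381). For Prc1 the means were 4.98, 7.56, 7.44 and 8.47 with WT, ApoE, AS1 and AS2 plasma, and AS2 was higher than ApoE by 0.91 (adjusted p = 3.21e-06) and than AS1 by 1.03 (adjusted p = 3.99e-06). Over the mitosis list, 43 of 44 members were higher with AS2 than with ApoE plasma (background 7.59% of rows higher) and 38 of 44 higher than with AS1 plasma (background 11.5%). Those comparisons share the AS2 arrays, and the list medians were 0.89 and 0.64.

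Promoter windows of the mitosis genes with the largest increases among those holding TTTGAA are shown because all 44 members rose together. Each window runs from 250 bases before to 50 bases after the annotated start, in the gene's direction, from RefSeq on GRCm38.p6. Capitals mark TTTGAA or TTTAAA (the cell cycle genes homology region, CHR), CCAAT (the CCAAT box) and TTCCCGC or TTGGCGC (forms of the E2F site) on either strand. Prc1 lies at chr7:80294201-80294500 on the plus strand, Anln at chr9:22389157-22389456 on the minus strand and Top2a at chr11:99024140-99024439 on the minus strand. The windows of Rrm1, chr7:102441445-102441744 on the plus strand, and Mcm5, chr8:75109259-75109558 on the plus strand, are the replication genes with the smallest adjusted p that hold an E2F form.
Prc1: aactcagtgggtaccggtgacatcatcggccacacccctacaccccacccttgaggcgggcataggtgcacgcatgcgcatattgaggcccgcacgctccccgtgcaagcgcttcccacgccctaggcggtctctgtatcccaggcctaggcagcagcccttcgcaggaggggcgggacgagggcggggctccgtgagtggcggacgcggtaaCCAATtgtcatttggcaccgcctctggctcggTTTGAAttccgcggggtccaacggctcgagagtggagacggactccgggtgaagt
Anln: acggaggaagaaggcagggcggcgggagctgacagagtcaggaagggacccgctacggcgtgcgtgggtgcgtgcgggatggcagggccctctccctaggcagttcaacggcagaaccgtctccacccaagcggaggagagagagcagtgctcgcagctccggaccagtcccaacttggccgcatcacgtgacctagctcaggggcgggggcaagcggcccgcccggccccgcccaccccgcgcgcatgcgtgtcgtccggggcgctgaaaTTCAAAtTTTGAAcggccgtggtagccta
Top2a: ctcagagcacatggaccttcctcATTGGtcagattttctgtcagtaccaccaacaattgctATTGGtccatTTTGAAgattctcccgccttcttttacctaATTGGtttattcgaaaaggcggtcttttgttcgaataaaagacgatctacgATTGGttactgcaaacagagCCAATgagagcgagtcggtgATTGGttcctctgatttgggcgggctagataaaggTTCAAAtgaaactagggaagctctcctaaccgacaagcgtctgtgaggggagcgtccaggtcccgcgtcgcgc
Rrm1: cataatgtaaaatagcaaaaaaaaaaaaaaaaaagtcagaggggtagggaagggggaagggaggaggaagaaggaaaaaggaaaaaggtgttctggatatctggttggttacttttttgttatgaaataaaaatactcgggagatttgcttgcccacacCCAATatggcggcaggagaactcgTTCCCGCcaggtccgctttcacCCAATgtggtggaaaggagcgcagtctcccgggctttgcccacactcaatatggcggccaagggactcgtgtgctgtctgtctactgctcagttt
Mcm5: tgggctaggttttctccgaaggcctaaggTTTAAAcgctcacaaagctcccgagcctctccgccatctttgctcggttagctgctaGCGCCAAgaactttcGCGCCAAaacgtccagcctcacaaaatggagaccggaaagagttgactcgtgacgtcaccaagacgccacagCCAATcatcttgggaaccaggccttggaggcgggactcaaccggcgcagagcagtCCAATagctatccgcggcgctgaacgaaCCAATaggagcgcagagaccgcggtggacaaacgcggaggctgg

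TTTGAA was found in windows of 31 of the 39 mitosis genes with an entry (79.5%), against 18% of 18380 genes with a row and an entry. CCAAT was found in 28 of the 39 (71.8%) and in 23 of the 36 replication genes with an entry (63.9%), against 41.9% of all. An E2F form was found in 6 of the 39 (15.4%), and in 22 of the 36 replication genes with an entry (61.1%), against 9.87% of all. TTTGAA was found in 6 of the 36 replication genes (16.7%). A gene with several windows counts once if any of them holds the letters, and a match on either strand counts. Overlapping matches of different motifs are each counted for their own motif. These counts describe letters in the windows.

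DNA replication and nucleotide supply genes rose too, by smaller amounts. Of 40 members 39 rose, with a median of 1.19, and 22 rose at least 2-fold; the exception was Dut, which hydrolyses dUTP, at a difference of 0.39 (adjusted p = 0.0539). Rrm1, the large subunit of ribonucleotide reductase, was 8.09, 8.08, 8.11 and 8.03 with WT and 9.74, 9.77 and 9.96 as lowest, median and highest with AS2 plasma (1.73, adjusted p = 4.1e-12). The 4 WT arrays lay close together, and the lowest AS2 array was 1.63 above the highest of them. Pole, the catalytic subunit of polymerase epsilon, rose by 2.04 ± 0.083 (SE). Mcm5, Mcm6 and Mcm7, subunits of the replicative helicase, rose by 1.60, 1.51 and 1.74. Pclaf, a PCNA-binding factor outside the list and among the 15 largest increases, rose by 2.75. Mcm5 was 6.86 ± 0.098 (SD, n = 4) with WT, 7.44 ± 0.098 (SD, n = 5) with ApoE, 7.33 ± 0.11 (SD, n = 3) with AS1 and 8.47 ± 0.11 (SD, n = 6) with AS2 plasma. The AS2 level was higher than the ApoE level by 1.03 and than the AS1 level by 1.14 (adjusted p = 2.72e-09 and 6.05e-09). All 40 replication members were higher with AS2 than with ApoE plasma, and 34 higher than with AS1 plasma, at medians of 0.74 and 0.70.

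Upstream of replication, 10 of 18 G1 genes rose and 3 fell. Ccnd1, the cyclin D1 that growth factors induce, was 7.92, 7.88, 7.93 and 7.94 with WT and 9.30, 9.50 and 9.63 as lowest, median and highest with AS2 plasma (1.54, adjusted p = 4.05e-10). Its means with ApoE and AS1 plasma were 7.99 and 7.81, against 7.92 with WT plasma, and the AS2 level exceeded them by 1.48 and 1.66 (adjusted p = 7.04e-10 and 1.52e-09). Ccne2, a cyclin E, rose by 1.78, Rbl1, the pocket protein p107, by 1.29, the transcription factor gene Myc by 0.96 and the CDK inhibitor gene Cdkn2c by 0.92. The 3 that fell were Rb1, the retinoblastoma protein (-0.64), and the CDK inhibitor genes Cdkn1b (-0.26) and Cdkn1a (-0.21). Of 45 replication-dependent histone genes 16 rose and 1 fell (H2bc6, -0.55, which did not pass without WT replicate 1 or without WT replicate 4), at a median of 0.07; H2ac10, H2ac11 and H2bc12 rose by 1.70, 1.96 and 1.82, and 20 members were below the array median of 4.37 in both groups. Histone copies share near-identical sequence, so the value of a single copy is uncertain.

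**Figure D2:**
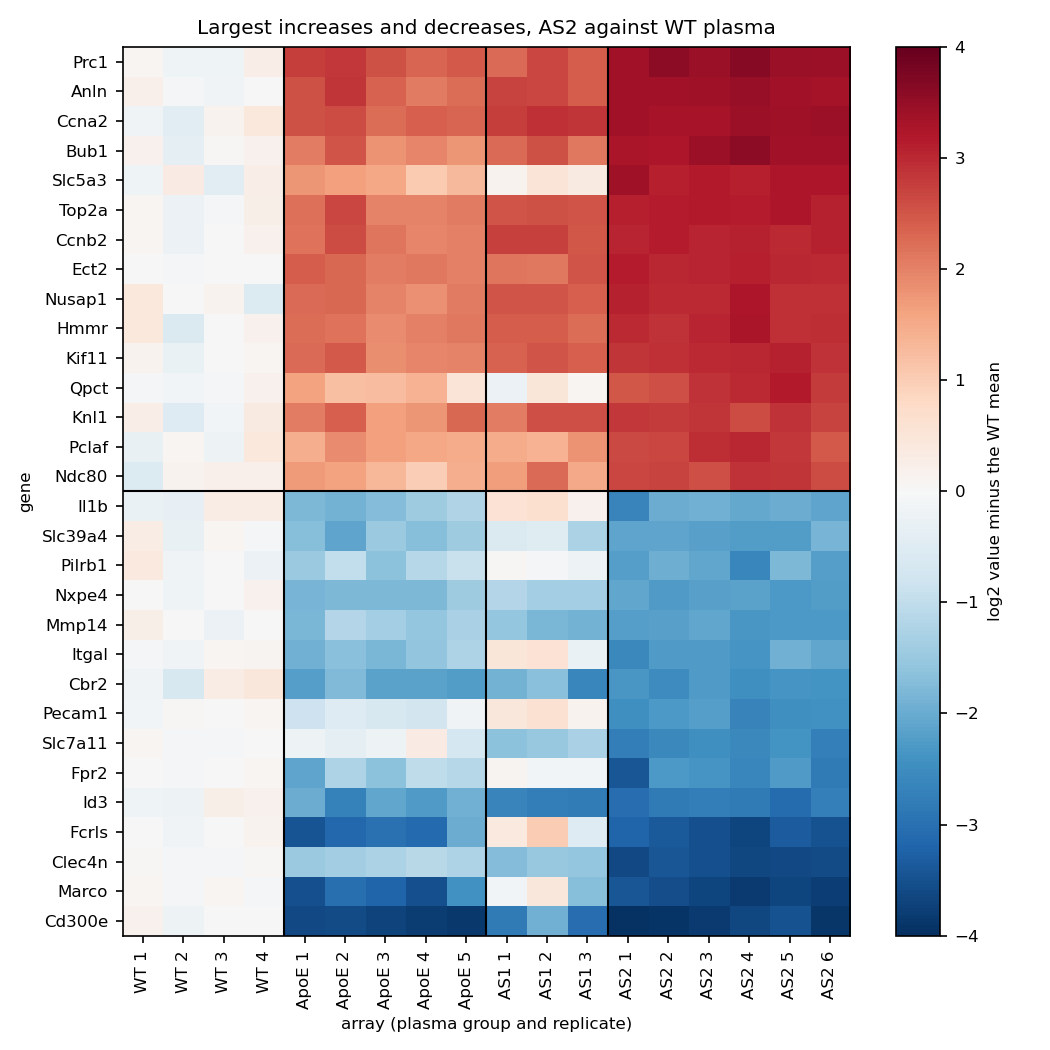
Log2 value of each of the 18 arrays minus the WT mean, for the 15 largest increases (top) and 15 largest decreases (bottom) with AS2 against WT plasma, coloured from -4 (blue) to 4 (red). The 6 AS2 columns are red in the upper block and blue in the lower block, while the AS1 columns are near white for Pilrb1, Itgal, Pecam1 and Fpr2.

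Outside cell division, Slc5a3 and Qpct were among the 15 largest increases. Slc5a3, the sodium-coupled myo-inositol transporter, was 5.86, 6.38, 5.62 and 6.29 with WT and 9.14, 9.23 and 9.41 as lowest, median and highest with AS2 plasma, a 9.20-fold increase (adjusted p = 4.49e-11). Its means were 7.50 with ApoE and 6.38 with AS1 plasma, below AS2 by 1.74 and 2.86 (adjusted p = 7.13e-08 and 1.64e-09). Qpct, glutaminyl cyclase, which modifies the amino end of chemokines and other peptides, rose by 2.82 ± 0.18 (SE), from a range of 4.44 to 4.72 to a range of 7.01 to 7.73. The nearest arrays of the groups were 2.77 apart for Slc5a3 and 2.29 apart for Qpct.

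The deepest decreases were in surface receptors of innate recognition. Cd300e, an activating receptor of the CD300 family, was 8.81, 8.44, 8.64 and 8.66 with WT and 4.70, 4.78 and 5.16 as lowest, median and highest with AS2 plasma, 13.8-fold lower (adjusted p = 1.73e-11). Marco, a scavenger receptor for bacteria and modified lipoproteins, was 9.22, 9.08, 9.23 and 9.10 with WT and 5.33, 5.49 and 5.74 with AS2 plasma in the same order (-3.65, adjusted p = 6.28e-08). Clec4n, the mannan receptor Dectin-2, was 9.50, 9.39, 9.38 and 9.50 and 5.79, 5.86 and 6.02 (-3.56, adjusted p = 7.78e-16). The gap between the nearest arrays was 3.27 for Cd300e, 3.34 for Marco and 3.36 for Clec4n. ApoE and AS1 levels placed the 3 genes differently. Clec4n had means of 8.14 with ApoE and 7.83 with AS1 plasma, and AS2 was lower by 2.26 and 1.96 (adjusted p = 2.76e-13 and 7.4e-11). Cd300e was 4.94 ± 0.12 (SD, n = 5) with ApoE plasma, from which AS2 did not differ past the threshold (-0.08, adjusted p = 0.845). Marco was 6.03 with ApoE (AS2 minus ApoE -0.52, adjusted p = 0.287) and 8.70 ± 1.13 (SD, n = 3) with AS1 plasma (AS2 minus AS1 -3.19, adjusted p = 1.19e-06).

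Among C-type lectins 9 of 20 fell and 4 rose (median -0.14). Clec4e, the mycobacterial glycolipid receptor Mincle, was 8.04, 7.95, 7.93 and 8.05 with WT and 5.98, 6.23 and 6.42 as lowest, median and highest with AS2 plasma (-1.77), and its AS2 level was below the ApoE mean of 8.37 by 2.14 (adjusted p = 2.03e-09). Clec4b1, Clec4d and Clec4a3, which lie in the same gene cluster, fell by 2.04, 0.95 and 0.88. The 4 that rose were Clec7a, the beta-glucan receptor Dectin-1 (0.61), Clec10a (0.60), Mgl2 (0.46) and Clec5a (0.32). Of 22 CD300, CD200R and TREM receptors 10 fell and 2 rose, with Pilra, an inhibitory receptor, and Treml4 lower by 2.03 and 1.51, Cd300a, another inhibitory receptor, lower by 0.39, and Cd300lg and Cd200r4 higher by 0.52 and 0.97. Pilrb1, the activating partner of Pilra, is outside that list and fell by 2.14. Fpr2, the formyl peptide receptor, fell by 2.63 ± 0.21 (SE), with WT arrays at 7.35 to 7.52 and AS2 arrays at 4.02 to 5.17. Of 14 MS4A and TMEM176 membrane genes 6 fell (limma; at an unadjusted p under 0.05, 7 were lower and 1 higher), with Tmem176b, Ms4a4a and Ms4a7 lower by 1.20, 0.83 and 0.73. The AS2 level of Tmem176b was above the ApoE level by 0.82 (adjusted p = 0.00341).

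Toll-like receptors and their accessory proteins, which sense microbial molecules, fell in 11 of 18 and rose in 1, at a median of -0.42. Tlr5, the flagellin receptor, was 7.91, 7.90, 8.15 and 8.02 with WT and 5.80, 5.96 and 6.31 as lowest, median and highest with AS2 plasma (-1.99, adjusted p = 5.19e-08). It was also below ApoE (mean 8.08) by 2.08 and below AS1 (mean 8.72) by 2.72 (adjusted p = 2.28e-08 and 6.68e-09). Tlr9, a DNA sensor, Ly86, the MD-1 protein, and Tlr8, an RNA sensor, fell by 0.89, 0.71 and 0.38. The gene that rose was Cd180, which pairs with MD-1, at 0.53 (adjusted p = 4.19e-07). Set against ApoE plasma, 6 of the 18 were higher with AS2 plasma and 2 lower, Tlr5 among the latter, at a median of 0.0008. ApoE plasma itself had 11 of the 18 lower than WT plasma, at a median of -0.39. Of 10 Fc receptors, which bind antibodies, 7 fell in limma's test, at a median of -0.52, and at an unadjusted p under 0.05 8 were lower and 0 higher. Fcrls, a macrophage Fc receptor-like gene, was 10.09, 9.95, 10.10 and 10.24 with WT and 6.41, 6.68 and 6.91 as lowest, median and highest with AS2 plasma (10.8-fold lower, adjusted p = 2.15e-08). Its AS1 mean of 10.39 ± 0.76 (SD, n = 3) lay above AS2 by 3.72 (adjusted p = 4.2e-08). With ApoE plasma its mean was 7.16, from which AS2 did not differ past the threshold (-0.49, adjusted p = 0.224). The IgG receptor genes Fcgr1 and Fcgr3 and the recycling receptor gene Fcgrt fell by 0.78, 0.51 and 0.70. For 6 of the 7 the decrease stayed under 2-fold, Fcrls being the exception.

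Genes of antigen presentation fell in 8 of 19 and rose in 1 (2 without WT replicate 3 or without AS2 replicate 1), at a median of -0.32. Cd86, the costimulatory ligand B7-2, was 8.65, 8.72, 8.64 and 8.67 with WT and 6.83, 6.98 and 7.33 as lowest, median and highest with AS2 plasma (-1.66, adjusted p = 2.6e-10), while ApoE and AS1 means were 8.93 and 8.86. AS2 was below both, by 1.92 and 1.85 (adjusted p = 4.44e-11 and 6.85e-10). The class II genes H2-Eb1 and H2-Ab1 fell by 1.05 and 0.64, Icosl, the ligand of ICOS, by 1.11 and Cd40 by 0.45. The gene that rose was Ifi30, a lysosomal thiol reductase (0.60). Cd86 did not stand for the list in its place against ApoE plasma. There 5 of the 19 were higher (background 7.59%) and 4 lower (background 8.02%) with AS2 plasma, at a median of 0.15. ApoE plasma itself had 12 of the 19 lower and 2 higher than WT plasma, at a median of -0.60. In the complement list 7 of 15 fell and 1 rose. Vsig4, a complement receptor, fell by 1.52 ± 0.14 (SE) and Cfp, properdin, by 0.52, and the gene that rose was Itgax, the integrin alpha chain CD11c, a part of a complement receptor. Vsig4 was 6.09, 6.01, 6.01 and 4.57 with WT, ApoE, AS1 and AS2 plasma.

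Beside these decreases, neutrophil markers had 7 of 20 members lower and 1 higher (Mpo, the early granule peroxidase myeloperoxidase, 0.76), at a median of -0.51. Csf3r, the G-CSF receptor, S100a8 and Lcn2 fell by 0.97, 0.86 and 0.74. The summed linear level of the list, which adds the antilogs of the log2 values, ranged from 7393 to 9377 in WT and from 3852 to 6370 in AS2 arrays, and 2 of the 20 markers lay below the array median in both groups. Without WT replicate 3 the number lower was 3, and without WT replicate 4 it was 4. Lcn2 did not pass without WT replicate 3 (-0.67, adjusted p = 0.0573). Without Lcn2, which differed most in linear level, the sums were 5300 to 6413 in WT and 2885 to 4627 in AS2 arrays. The part of these markers in the decreases of receptors was not tested.

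**Figure D3:**
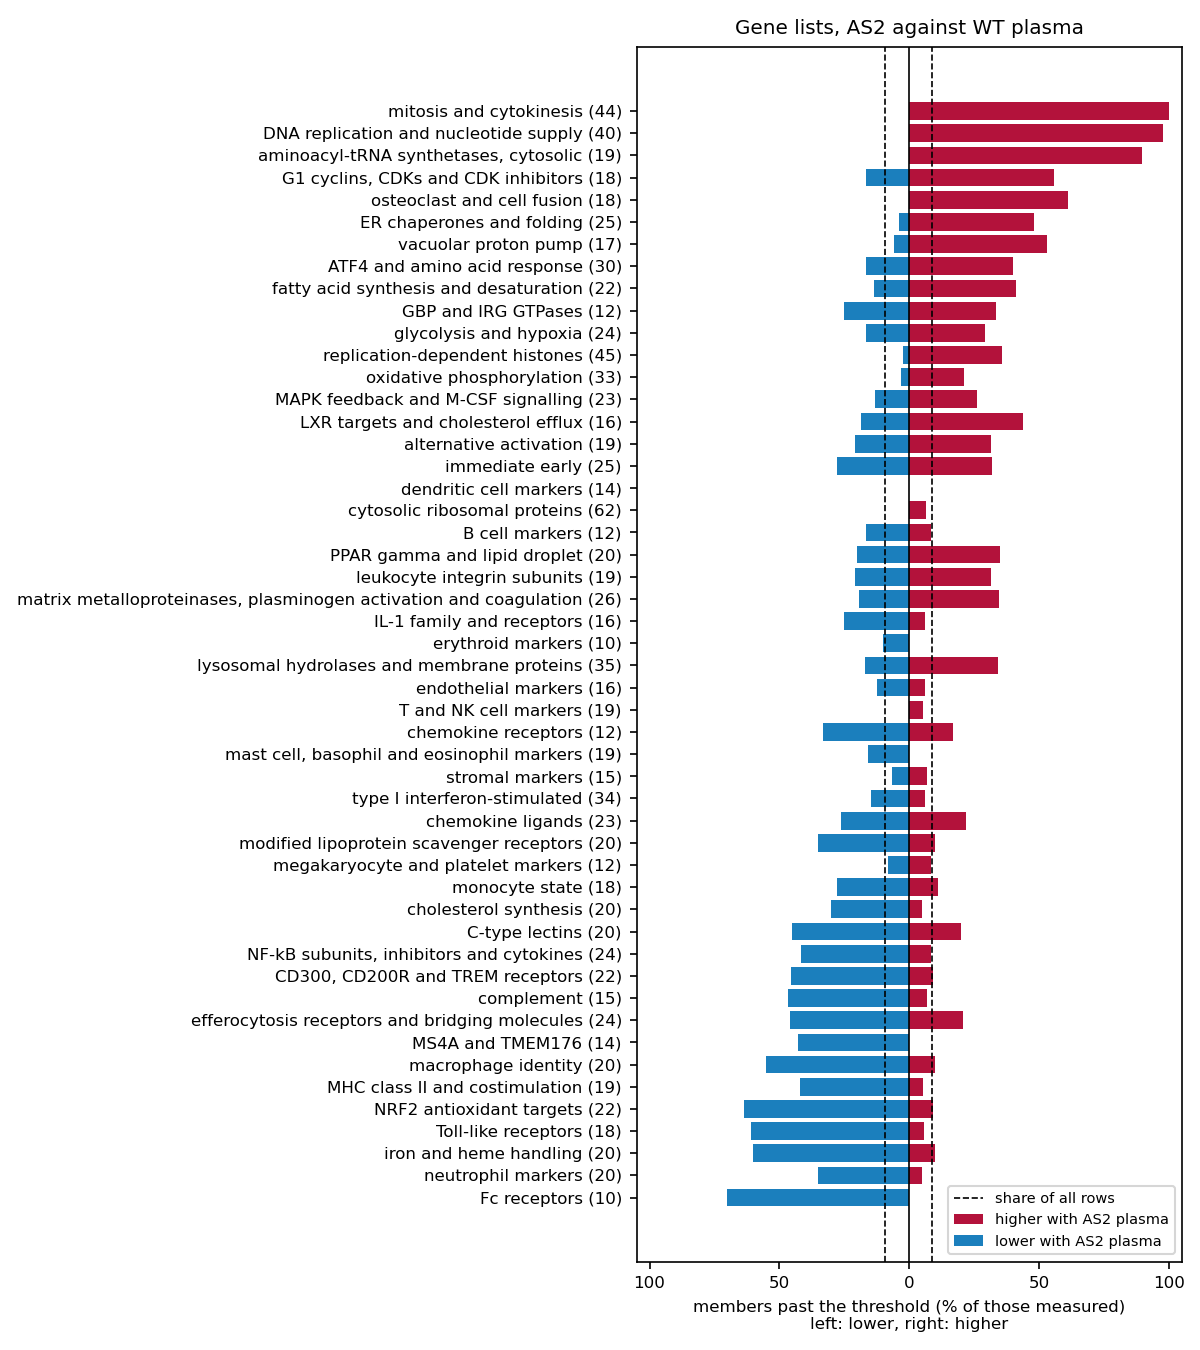
Members of each gene list past the threshold as a percentage of those measured (number in parentheses), lower to the left and higher to the right, with dashed lines at the shares over all rows, 8.65% higher and 9.2% lower. Mitosis, replication and tRNA synthetase genes extend to the right; Fc receptors, NRF2 targets, Toll-like receptors and iron genes extend to the left.

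Genes of osteoclasts and of macrophage fusion, the process that makes multinucleated cells, rose in 11 of 18 members in limma's test, which called 0 lower (1 at an unadjusted p under 0.05). The median was 0.22, and 5 members rose at least 2-fold. Acp5, the tartrate-resistant acid phosphatase, was 6.78, 6.29, 6.67 and 6.67 with WT and 8.51, 8.58 and 8.68 as lowest, median and highest with AS2 plasma, a 3.95-fold increase (adjusted p = 3.69e-10). Dcstamp, the fusion protein DC-STAMP, was 4.88, 5.24, 4.87 and 4.93 with WT and in a range of 6.24 to 7.62 with AS2 plasma (2.01, adjusted p = 1.84e-07). Atp6v0d2, a proton pump subunit needed for fusion, was 9.33, 9.37, 9.12 and 9.27 and 11.65, 11.71 and 11.81 (2.45, adjusted p = 4.89e-14). The gap between the nearest arrays was 1.73 for Acp5 and 2.29 for Atp6v0d2, Dcstamp did not overlap either, and the 6 AS2 values of Dcstamp were the most spread. Ctsk, the collagen-degrading cathepsin K, and Cd109 rose by 1.74 and 1.51. Acp5 was 6.26 with ApoE and 6.70 with AS1 plasma, and AS2 was higher by 2.33 and 1.89 (adjusted p = 5.12e-11 and 5.29e-09); for Dcstamp the excess was 2.43 and 2.22. Nfatc1, the master regulator of osteoclasts, and Itgb3, the integrin beta chain they use, were at -0.18 and 0.03 and did not pass. Without WT replicate 1 the counts were 7 higher and 1 lower, and without WT replicate 3 the number higher was 7.

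Among 17 subunits of the vacuolar proton pump, which acidifies lysosomes, 9 rose and 1 fell (Atp6v0e, -0.24, which did not pass without WT replicate 3 or without WT replicate 4), at a median of 0.20. After Atp6v0d2 the subunits Atp6v1c1, Atp6v1a, Atp6v1b2 and Atp6v1d rose by 0.60, 0.56, 0.39 and 0.30. Lysosomal hydrolases and membrane proteins moved both ways, with 12 of 35 higher and 6 lower. Arsb, the arylsulfatase of glycosaminoglycan breakdown, rose by 0.97 ± 0.055 (SE), Gusb and Manba, which remove sugars, by 0.52 and 0.36, and Gpnmb, a membrane glycoprotein of lipid-laden macrophages, by 0.46, while Ctsh, cathepsin H, fell by 0.66. TCACGTG, a form of the site of the MiT/TFE factors, was found in promoter windows of 9 of 30 lysosomal genes (30.0%) and 4 of 11 pump genes (36.4%) with an entry, against 5.09% of all.

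Extracellular proteolysis, adhesion and coagulation genes held large changes in both directions. Plau, the urokinase plasminogen activator, was 7.51, 7.20, 7.52 and 7.46 with WT and 9.68, 9.96 and 10.24 as lowest, median and highest with AS2 plasma (5.84-fold higher, adjusted p = 8.31e-10). Mmp12, macrophage elastase, was 9.79, 10.01, 9.67 and 9.72 and 11.47, 11.58 and 11.63 (1.76, adjusted p = 1.16e-11). The nearest arrays were 2.16 apart for Plau and 1.46 for Mmp12. Plau was 7.77 with ApoE and 6.99 with AS1 plasma, below AS2 by 2.20 and 2.98 (adjusted p = 4.87e-09 and 1.16e-09). The means of Mmp12 with ApoE and AS1 plasma were 9.93 and 9.79, against 9.80 with WT plasma, and AS2 exceeded them by 1.63 and 1.77 (adjusted p = 2.91e-11 and 1.69e-10). Mmp14, the membrane-anchored collagenase, fell by 2.23 ± 0.11 (SE), with WT arrays at 6.71 to 7.16 and AS2 arrays at 4.61 to 4.86. F13a1, the clot-stabilising factor XIII A chain, and Thbs1, thrombospondin-1, fell by 1.98 and 1.45. Thbs1 was higher with ApoE (12.59) and AS1 (12.17) than with AS2 plasma (10.08), by 2.51 and 2.09. In the list of 26 such genes 9 rose and 5 fell.

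Of 19 leukocyte integrin subunits 6 rose and 4 fell. Itgax was 5.71, 5.55, 5.02 and 5.26 with WT and 7.63, 7.91 and 8.10 as lowest, median and highest with AS2 plasma (5.68-fold higher, adjusted p = 6.14e-10). Its means were 5.02 with ApoE and 5.27 with AS1 plasma, and AS2 was above them by 2.87 and 2.62 (adjusted p = 9.17e-11 and 2.79e-09). Itgb7, a beta chain of homing integrins, rose by 1.97 ± 0.14 (SE). Itgal, the LFA-1 alpha chain, was 8.03, 7.96, 8.19 and 8.22 with WT and 5.52, 5.83 and 6.17 with AS2 plasma (-2.25, adjusted p = 1.08e-08), and Itga9 and Itgb5 fell by 1.20 and 0.49. Pecam1, an adhesion molecule of leukocytes, platelets and endothelium, was 8.66, 8.83, 8.78 and 8.85 with WT and 6.10, 6.33 and 6.57 with AS2 plasma (-2.43). Its ApoE and AS1 means were 8.21 and 9.18, above AS2 by 1.85 and 2.82 (adjusted p = 3.03e-09 and 2.73e-10).

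**Figure D4:**
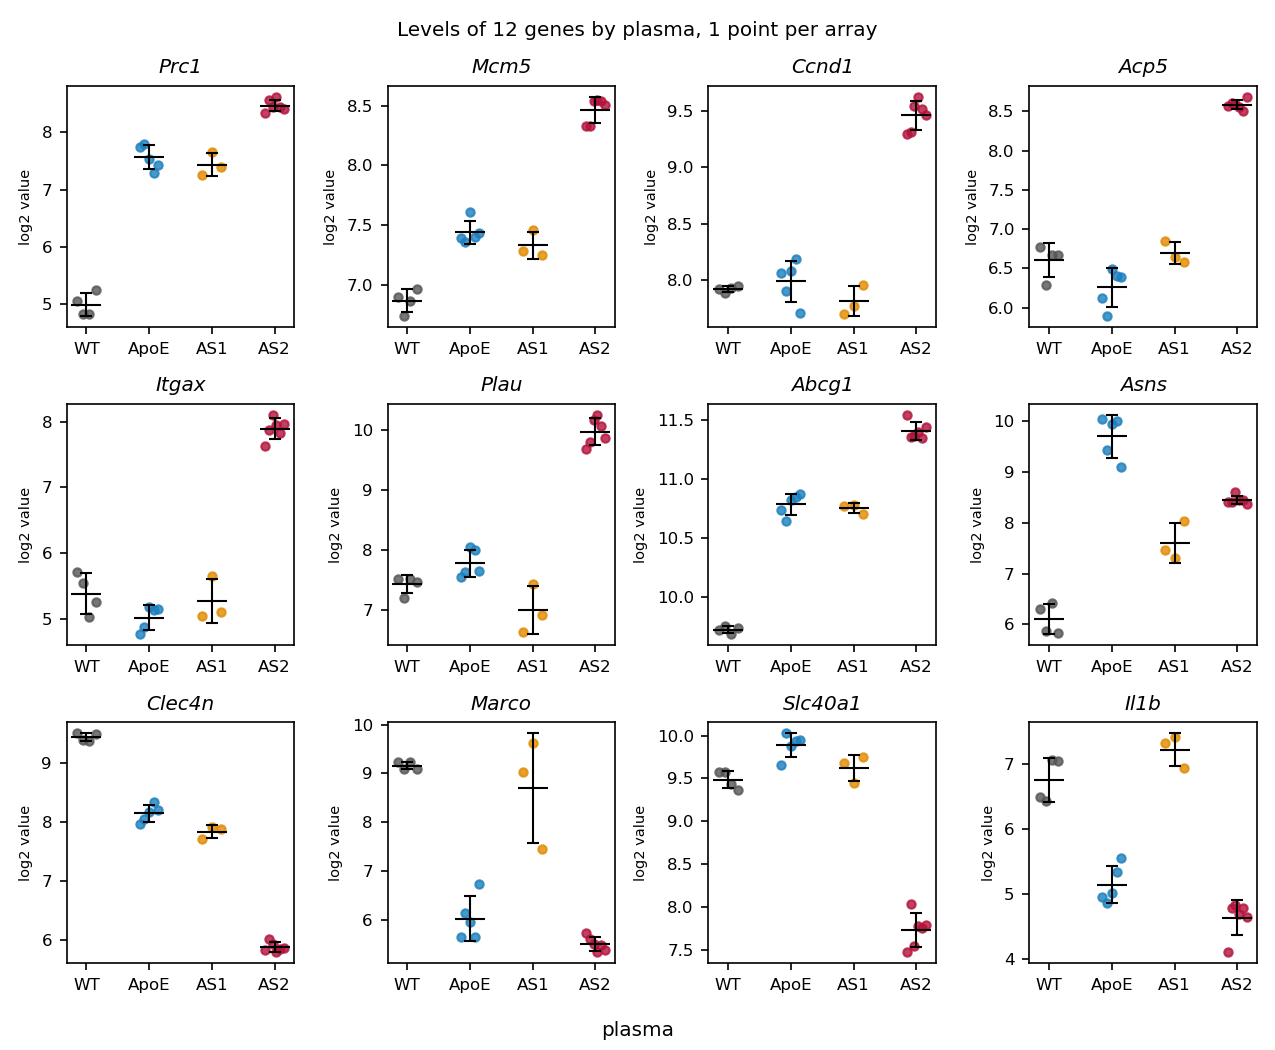
Log2 value of 12 genes in each array by plasma (points), with mean and SD (bars); each panel has its own vertical scale. Ccnd1, Acp5, Itgax and Plau are high with AS2 plasma alone among the 4 plasmas, Asns is highest with ApoE plasma, and Slc40a1 is low with AS2 plasma.

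Cholesterol efflux genes that answer to the sterol-sensing receptor LXR rose in 7 of 16 and fell in 3. Abcg1, which exports cholesterol to HDL, was 9.72, 9.75, 9.68 and 9.74 with WT and 11.35, 11.38 and 11.54 as lowest, median and highest with AS2 plasma (3.22-fold higher, adjusted p = 1.18e-13). Abca1, which exports cholesterol to apolipoprotein A-I, was 10.89, 10.93, 10.77 and 10.91 and 11.42, 11.48 and 11.70 (0.64, adjusted p = 2.42e-07). Neither overlapped with WT, and they differed in their place against ApoE plasma. Abcg1 with AS2 plasma was above ApoE by 0.62 (adjusted p = 2.14e-08), whereas Abca1 was below it by 0.29 (adjusted p = 0.000728). The stearoyl-CoA desaturase genes Scd2 and Scd1, which make monounsaturated fatty acids, rose by 2.50 and 1.22. Macrophage Apoe itself was 11.71, 11.67, 11.68 and 11.75 with WT and 11.28, 11.42 and 11.51 with AS2 plasma, a decrease of 0.29 (adjusted p = 0.00909). The 3 members that fell were Apoe, Smpdl3a, a phosphodiesterase (-0.33), and Nr1h3, which encodes LXR alpha (-0.42).

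Cholesterol synthesis genes fell in 6 of 20 and rose in 1 (Msmo1, 0.30), at a median of -0.12. Msmo1 did not pass without WT replicate 2, without WT replicate 4 or without AS2 replicate 2, 3, 4 or 5. Srebf2, the transcription factor SREBP-2 that drives the pathway, fell by 0.64 ± 0.083 (SE), with WT arrays at 8.25 to 8.52 and AS2 arrays at 7.53 to 7.79. Pmvk, Nsdhl and Sqle, enzymes of the pathway, fell by 0.39, 0.32 and 0.43, and Insig1, which retains SREBPs in the ER, by 0.38. Sqle did not pass without WT replicate 1 (-0.38, adjusted p = 0.0519). Hmgcs1, the synthase that precedes the rate-limiting step, was 7.66, 7.74, 7.67 and 7.62 with WT and 7.63, 7.71 and 7.86 with AS2 plasma and did not pass (adjusted p = 0.776). Fatty acid synthesis and desaturation genes rose in 9 of 22 and fell in 3, with Acaca, acetyl-CoA carboxylase, at 0.66, Acsl5, an acyl-CoA synthetase, at 0.39 and Me1, malic enzyme, at -0.89. Among PPAR gamma and lipid droplet genes 7 of 20 rose and 4 fell (2 without WT replicate 3 or without WT replicate 4). Lpl, lipoprotein lipase, was 12.66 to 12.73 with WT and 13.11 to 13.21 with AS2 plasma (0.49, adjusted p = 3e-08), and AS2 was above ApoE (11.90) by 1.28 and above AS1 (12.23) by 0.95 (adjusted p = 2.76e-13 and 1.54e-10). Acadl and Acadm, of fatty acid oxidation, rose by 0.62 and 0.27, and Hilpda, a lipase inhibitor on lipid droplets, by 0.80.

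Scavenger receptors for modified lipoproteins fell in 7 of 20 and rose in 2. After Marco came Stab1, stabilin-1 of the macrophages, which was 12.08, 12.07, 11.90 and 12.02 with WT and 10.88, 11.08 and 11.11 as lowest, median and highest with AS2 plasma (-0.97, adjusted p = 2.39e-10). The nearest arrays were 0.79 apart. The Stab1 means were 11.83 with ApoE and 11.97 with AS1 plasma, and AS2 was below them by 0.79 and 0.92 (adjusted p = 3.39e-09 and 3.7e-09). Stab2 was 5.09, 5.72, 4.99 and 5.08 with WT and 4.70, 5.04 and 5.27 with AS2 plasma, and did not pass (adjusted p = 0.438). Cd163, the haemoglobin receptor, and Cxcl16, a membrane chemokine that takes up oxidised lipoprotein, fell by 0.97 and 0.74. The 2 that rose were Cd36, the fatty acid and oxidised LDL receptor (0.36), and Lrp1 (0.21).

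Cytosolic aminoacyl-tRNA synthetases, which charge tRNAs with amino acids, rose in 17 of 19 in limma's test, at a median of 0.60; 0 fell, also at an unadjusted p under 0.05. Cars was 6.83, 6.81, 6.96 and 7.10 with WT and 7.90, 8.02 and 8.12 as lowest, median and highest with AS2 plasma (1.10, adjusted p = 1.55e-06), and Aars, Iars, Yars and Mars1 rose by 0.97, 0.94, 0.92 and 0.81. With AS2 plasma 14 of the 19 were lower (background 8.02%) and 2 higher than with ApoE plasma, at a median of -0.41, while 15 were higher than with AS1 plasma. Among genes of the amino acid response driven by ATF4, 12 of 30 rose and 5 fell. Asns, asparagine synthetase, was 6.29, 5.87, 6.42 and 5.82 with WT and 8.38, 8.43 and 8.60 with AS2 plasma (5.09-fold higher, adjusted p = 3.65e-08). Mthfd2, the mitochondrial folate enzyme, was 5.73, 5.62, 6.16 and 6.18 and 8.15, 8.29 and 8.49 (2.37, adjusted p = 3.75e-09). Both stood clear of the WT arrays and below the ApoE means of 9.70 and 9.29 (adjusted p = 3.41e-05 and 6.47e-05). Slc38a2, an amino acid transporter, rose by 1.12, while Sesn2, the leucine sensor sestrin-2, fell by 1.13, and it was below the ApoE mean as well (-1.20, adjusted p = 4.39e-08).

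Slc7a11, the cystine transporter that ATF4 and NRF2 both control, went the other way from Asns. It was 7.40, 7.30, 7.29 and 7.35 with WT and 4.56, 4.75 and 4.94 as lowest, median and highest with AS2 plasma (6.00-fold lower, adjusted p = 2.75e-10). Its means were 7.10 with ApoE and 5.85 with AS1 plasma, and AS2 was below them by 2.35 and 1.10 (adjusted p = 9.17e-10 and 2.84e-05). TGATGCA, a form of the ATF4 site, was found in windows of 7 of 25 genes of the ATF4 list (28.0%) and 4 of 12 synthetases (33.3%) with an entry, against 3.13% of all. Of 25 ER chaperones and folding factors 12 rose and 1 fell (Herpud1, an ER-associated degradation factor, -0.38), at a median of 0.22, each by less than 2-fold. Ero1b, an oxidase of disulfide formation, and P4hb and Pdia4, disulfide isomerases, rose by 0.53, 0.41 and 0.41, and Edem1 and Dnajb11 by 0.35 and 0.36. Against ApoE plasma 21 of the 25 were lower, at a median of -0.46, and 0 higher, also at an unadjusted p under 0.05 in limma.

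Antioxidant genes that answer to NRF2 fell in 14 of 22, at a median of -0.41, and rose in 2 (Sod1, 0.94, and Gpx1, 0.25). The number higher was 0 without WT replicate 2, and 1 without WT replicate 1, WT replicate 4 or AS2 replicate 3, 5 or 6. Gclm, the modifier subunit of the enzyme that limits glutathione synthesis, was 10.96, 10.85, 10.93 and 10.80 with WT and 9.19, 9.35 and 9.51 as lowest, median and highest with AS2 plasma (-1.54, adjusted p = 1.72e-12). Gclc, its catalytic subunit, and Gsta3, a glutathione transferase, fell by 1.07 and 0.93. Hmox1, heme oxygenase-1, was 11.56, 11.51, 11.62 and 11.60 with WT and 10.34, 10.50 and 10.55 with AS2 plasma (-1.10, adjusted p = 1.15e-09). The nearest arrays were 1.29 apart for Gclm and 0.96 for Hmox1. For Gclm the levels ran WT 10.89, ApoE 9.94, AS1 9.80 and AS2 9.35, and AS2 was below ApoE by 0.59 and below AS1 by 0.45 (adjusted p = 1.92e-07 and 1.77e-05). Over the list the place against AS1 plasma was the other way. There 11 of 22 members were higher (background 11.5%) and 6 lower (background 10.6%) with AS2 plasma, at a median of 0.17. Against ApoE plasma 5 were higher (background 7.59%) and 8 lower (background 8.02%), at a median of -0.18. Cbr2, carbonyl reductase, was among the 15 largest decreases at -2.38.

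Iron and heme handling genes fell in 12 of 20 and rose in 2 (Steap3, 0.70, and Flvcr1, 0.27), at a median of -0.44. Slc40a1, the iron exporter ferroportin, was 9.57, 9.58, 9.43 and 9.37 with WT and 7.47, 7.77 and 8.04 as lowest, median and highest with AS2 plasma (3.39-fold lower, adjusted p = 5.3e-10). The ApoE and AS1 means were 9.89 and 9.62, and AS2 was below them by 2.16 and 1.90 (adjusted p = 4.28e-11 and 1.76e-09). The nearest AS2 and WT arrays were 1.33 apart. Trf, transferrin, and Hfe, a regulator of iron uptake, fell by 0.77 and 0.85, and Slc39a4, a zinc importer outside the list, differed by -2.11. The Hfe level with AS2 plasma was above the ApoE mean by 0.25 (adjusted p = 0.0408), against the direction seen for Slc40a1 and Trf (-0.99).

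Inflammatory mediators split between the cytokine Il1b and its antagonist. Il1b, interleukin-1 beta, was 6.49, 6.43, 7.05 and 7.05 with WT and 4.10, 4.74 and 4.83 as lowest, median and highest with AS2 plasma (4.33-fold lower, adjusted p = 6.97e-08). Il1rn, the IL-1 receptor antagonist, was 7.23, 7.54, 6.96 and 7.08 with WT and 9.45, 9.63 and 9.87 with AS2 plasma (5.40-fold higher, adjusted p = 6.05e-11). The groups were separate in both genes, in opposite directions. Il1rn was 7.58 with ApoE and 7.45 with AS1 plasma, below AS2 by 2.05 and 2.18 (adjusted p = 4.95e-10 and 2.01e-09). Il1b was 5.15 with ApoE and 7.22 with AS1 plasma, above AS2 by 0.51 and 2.58 (adjusted p = 0.0416 and 3.3e-08). In the IL-1 family list 4 of 16 fell and 1 rose, the others that fell being Il18 (-0.89), the inflammasome sensor gene Nlrp3 (-1.11) and the IL-18 binding protein gene Il18bp (-0.69). Of 24 NF-kB genes and cytokines 10 fell and 2 rose, with Nfkbiz, an atypical inhibitor protein, at -1.31, and the adaptor gene Traf1 at 0.90 as the other increase beside Il1rn.

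Chemokine genes moved both ways, with 5 of 23 ligands higher and 6 lower and 2 of 12 receptors higher and 4 lower. Over all rows 8.65% were higher and 9.2% lower. Ccl2, the monocyte attractant MCP-1, was 5.34, 5.36, 4.89 and 4.76 with WT and 7.32, 7.76 and 8.20 as lowest, median and highest with AS2 plasma (6.33-fold higher, adjusted p = 2.99e-09). Ccl5, an attractant of T cells and monocytes, was 7.58, 7.59, 7.95 and 7.46 and 5.77, 5.87 and 5.94 (-1.79, adjusted p = 2.77e-07), and Pf4, platelet factor 4, fell by 2.05 ± 0.14 (SE). These groups did not overlap. Ccl22 rose by 0.92. Among receptors Ccr1 and Cxcr4 rose by 1.42 and 0.48, and Ccr3, Cx3cr1, the fractalkine receptor, and Cmklr1, the chemerin receptor, fell by 1.67, 1.19 and 1.06. AS2 exceeded ApoE in Ccl2 by 1.82 and AS1 by 2.68 (adjusted p = 2.4e-07 and 1.75e-08).

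Genes stimulated by type I interferon mostly stayed within the threshold, with 5 of 34 lower and 2 higher (Cmpk2, 0.56, and Herc6, 0.49) and a median of -0.04. The number higher was 1 without WT replicate 1 or 2 and without AS2 replicate 2, 3 or 4. Irf7, the interferon regulatory factor, was 9.14, 8.80, 9.06 and 8.97 with WT and 7.94, 8.10 and 8.33 as lowest, median and highest with AS2 plasma (-0.89, adjusted p = 6.53e-05). Oas2, Ifi203 and Ifi204, sensors of nucleic acids or their relatives, fell by 0.51, 0.51 and 0.76. Against ApoE plasma 22 of the 34 were higher with AS2 plasma and 0 lower (27 and 0 at an unadjusted p under 0.05, limma), at a median of 0.29, with Irf7 at 0.70 (adjusted p = 0.000394). Among interferon-induced GTPases, which attack vacuoles of pathogens, 4 of 12 rose and 3 fell, with Gbp2, Gbp9 and Gbp5 at 1.22, 0.85 and 0.24 and Irgm2 and Gbp8 at -0.53 and -0.55. Of the 12, 3 were below the array median of 4.37 in both groups, Gbp5 among them. The WT and AS2 arrays of Gbp8 overlapped.

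Macrophage identity genes fell in 11 of 20 and rose in 2 (Bhlhe40, 0.94, and Bhlhe41, 0.55), at a median of -0.28. Id3, an inhibitor of bHLH transcription factors, was 7.34, 7.32, 7.75 and 7.69 with WT and 4.46, 4.68 and 4.79 as lowest, median and highest with AS2 plasma (7.38-fold lower, adjusted p = 3.86e-11). The defining markers changed little by comparison and stayed at high levels. Csf1r, the M-CSF receptor, was 12.66, 12.68, 12.55 and 12.57 with WT and 12.33, 12.40 and 12.49 with AS2 plasma (-0.21, adjusted p = 0.00412), and Adgre1, the antigen F4/80, fell by 0.33, to 12.16 to 12.33, so both defining markers of the labelled cell type were present in every array. Aif1, a calcium-binding actin regulator, and Maf, a macrophage transcription factor, fell by 1.45 and 0.87. Id3 was 5.34 with ApoE and 4.79 with AS1 plasma, and the AS2 level did not differ from AS1 past the threshold (-0.15, adjusted p = 0.575).

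Receptors and bridging molecules for the uptake of dying cells fell in 11 of 24 and rose in 5, with the receptor kinase gene Mertk at 10.66 to 10.68 with WT and 9.95 to 10.15 with AS2 plasma (-0.64, adjusted p = 2.55e-08) and Anxa1, annexin A1, higher by 0.85. Monocyte state genes fell in 5 of 18 and rose in 2, with Adgre4 and Cd81 at -1.66 and -0.80 and the tetraspanin gene Cd9 at 1.08. Of 19 genes of alternative activation 6 rose and 4 fell. Egr2, Ccl22 and Arg1, arginase-1, rose by 1.20, 0.92 and 0.75, while Chil3, the chitinase-like protein Ym1, was 9.99, 9.72, 9.88 and 9.93 with WT and 7.88, 8.24 and 8.69 as lowest, median and highest with AS2 plasma (-1.61, adjusted p = 7.68e-07). The groups did not overlap in Chil3. Chil3 is also a gene of neutrophil precursors, and the neutrophil list had a lower summed level with AS2 plasma, as given above; its part in this value was not tested.

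Immediate early genes, which answer to growth signals, rose in 8 of 25 and fell in 7. Egr2, Dusp5 and Fosl1 rose by 1.20, 1.19 and 0.52, and Ier3 and Btg2, an antiproliferative gene, fell by 1.26 and 1.14. In the list of MAPK feedback and M-CSF signalling 6 of 23 rose and 3 fell, with the phosphatase gene Dusp4 at 1.18, Csf2rb2 at 0.70 and the inhibitor gene Spred1 at 0.54. Glycolysis and hypoxia genes rose in 7 of 24 and fell in 4 (2 without WT replicate 1 or without WT replicate 3). Eno2, Pfkp, Pdk1 and Ldha were higher by 0.94, 0.85, 0.63 and 0.58, and Hk2, hexokinase 2, lower by 0.63. Oxidative phosphorylation subunits rose in 7 of 33 and fell in 1 (Sdhb, -0.24), with the ATP synthase subunits Atp5b and Atp5a1 at 0.48 and 0.43. Of 62 cytosolic ribosomal proteins 4 rose and 0 fell in limma's test (7 and 2 at an unadjusted p under 0.05; 1 fell without WT replicate 3), a share below the background, with Rpl8 at 0.22. Small nucleolar, Cajal body and similar RNAs, 656 rows in all, had 51 higher and 37 lower, a smaller share than over all rows. At least 2-fold, 15 of the 656 were higher and 2 lower, against 1.23% and 0.542% over all rows. Of the 656, 368 lay below the array median in both groups. Snord1b rose by 2.55 ± 0.36 (SE), with WT arrays at 4.38 to 6.16 and AS2 arrays at 7.31 to 8.18, and the row of the precursor gene Mir146 fell by 0.78, to a mean of 3.59, below the array median.

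Markers of other cell types were looked up in the same arrays, and in each list some lay below the array median in every WT and AS2 array; no value is 0 on this scale. Of 14 dendritic cell markers 5 were below the median, and limma called 0 (3 at an unadjusted p under 0.05; 1 lower without WT replicate 4 or AS2 replicate 4, 1 higher without AS2 replicate 1). Their summed linear level was 2320 to 2740 in WT and 2092 to 2515 in AS2 arrays. Of 19 T and NK cell markers 1 rose (Cd28, a costimulatory receptor, 0.60; 2 without WT replicate 2) and 12 were below the median, with sums of 995.3 to 1069 in WT and 1227 to 1451 in AS2 arrays. Without WT replicate 2, and without AS2 replicate 2, 1 T and NK cell marker fell. Of 12 B cell markers Blnk, an adaptor protein, rose (0.78; 2 rose without AS2 replicate 5), the B cell receptor genes Cd79b and Cd22 fell (-1.11 and -0.40), and 9 were below the median, with sums of 839.6 to 934 in WT and 1170 to 1232 in AS2 arrays. Of 10 erythroid markers Epor, the erythropoietin receptor, fell (-0.50) and 8 were below the median, with sums of 177 to 190.2 and 163.7 to 176.

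Of 16 endothelial markers Vwf rose (0.74), Pecam1 and Esam fell (-2.43 and -0.27) and 10 were below the median. Their sums were 691.7 to 761.1 in WT and 380.5 to 413 in AS2 arrays. Of 19 mast cell, basophil and eosinophil markers Ccr3, Prg2 and Hdc fell (-1.67, -1.16 and -0.58), where Hdc did not pass without any 1 of WT replicates 1, 3 and 4 or AS2 replicates 1, 3 and 6 (-0.57 to -0.50), and 12 were below the median, with sums of 539.4 to 612.7 in WT and 371 to 416 in AS2 arrays. Of 12 megakaryocyte and platelet markers Pf4 fell, Vwf rose and 1 was below the median, with sums of 1499 to 1669 in WT and 691.7 to 871.7 in AS2 arrays. Of 15 stromal markers Kitl rose (0.37; 0.30 and 0.33 and not past the threshold without WT replicate 2 and WT replicate 4), Acta2 fell (-0.49) and 7 were below the median, with sums of 392.5 to 416 and 375.3 to 414.6. After the sums were seen, they were computed again without the gene whose linear level differed most between AS2 and WT plasma. Without Pecam1 the endothelial sums were 288.3 to 306.6 in WT and 300.8 to 323.7 in AS2 arrays, and without Pf4 the platelet sums were 555.5 to 615.2 and 431.6 to 640.9. Without Blnk the B cell sums were 302.1 to 344.7 in WT and 249.7 to 263.5 in AS2 arrays, and without Cd28 the T and NK cell sums were 375.6 to 404.5 and 349.8 to 378.8. Without Epor the erythroid sums overlapped between the groups, and without Ccr3 the mast cell list was still lower, at 352.6 to 423 in WT and 319 to 349.8 in AS2 arrays. The list medians were -0.008 for endothelial, -0.11 for platelet, 0.036 for B cell, -0.009 for T and NK cell and -0.023 for mast cell, basophil and eosinophil markers. Their part in the results was not tested.

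The place of AS2 between the other plasmas differed by gene group. For synthetases and ER chaperones the order of list medians against WT was ApoE above AS2 (1.03 and 0.60 for synthetases, 0.61 and 0.22 for chaperones), and the direct contrast of AS2 with ApoE was negative, as given above. For neutrophil markers all 20 were lower with AS2 than with AS1 plasma (background 10.6%), at a median of -2.05, and 9 of 20 were lower than with ApoE plasma; S100a8 was 9.59, 9.96, 11.34 and 8.72 with WT, ApoE, AS1 and AS2 plasma. All 12 megakaryocyte and platelet markers were lower with AS2 than with ApoE plasma (background 8.02%) and than with AS1 plasma (background 10.6%), at medians of -0.83 and -1.17. For Toll-like receptors 6 of 18 were higher (background 7.59%) and 2 lower (background 8.02%) with AS2 than with ApoE plasma. These comparisons share arrays with each other and with the comparison against WT plasma, so their values are set side by side and were not correlated.

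**Figure D5:**
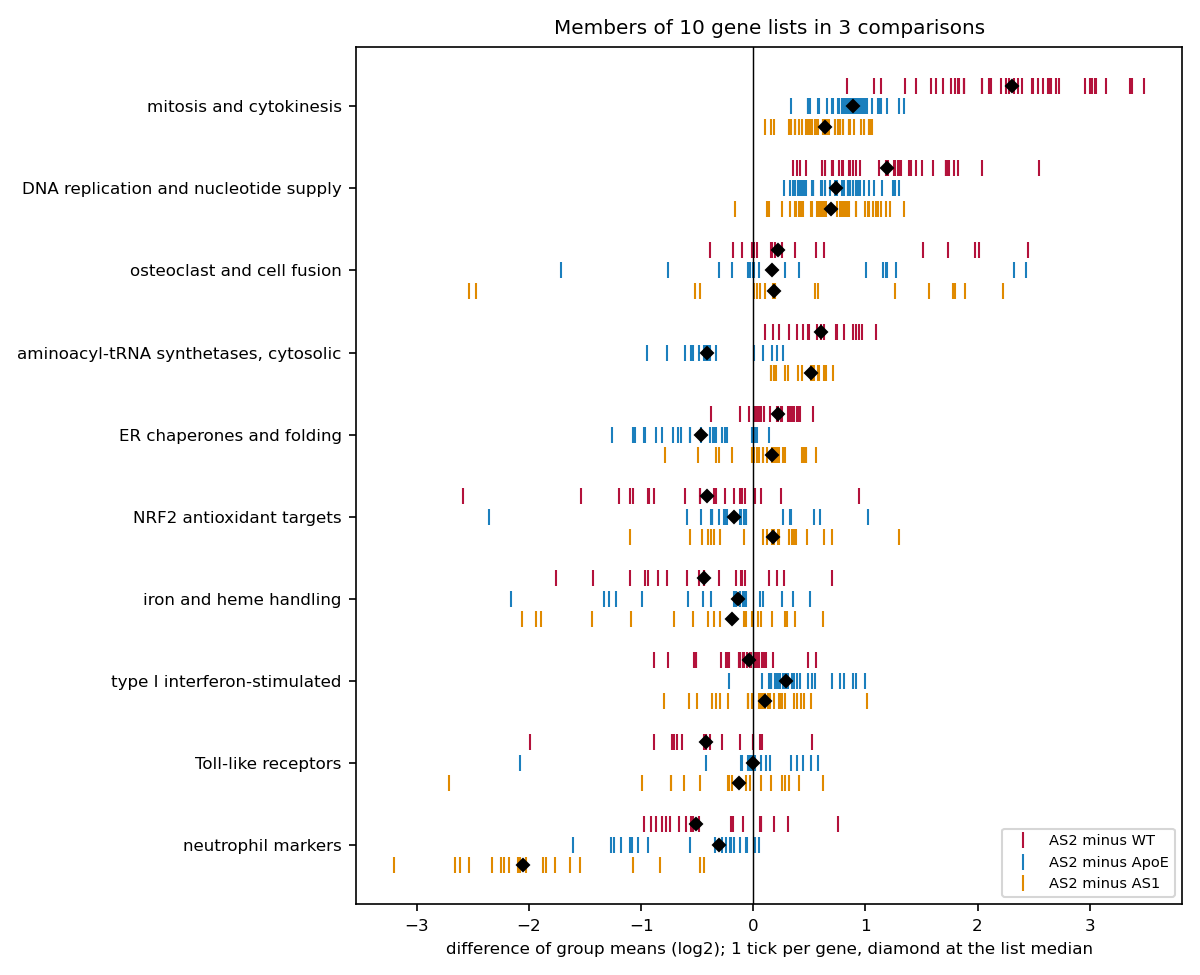
Difference of group means (log2) of every member of 10 gene lists, with AS2 minus WT in red, AS2 minus ApoE in blue and AS2 minus AS1 in orange; 1 tick per gene, black diamond at the list median. All mitosis members lie right of 0 in the 3 comparisons, all synthetases and most chaperones lie right of 0 against WT plasma, both lists lie mostly left of 0 against ApoE plasma, and neutrophil markers lie far left against AS1 plasma.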

How the data were processed

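Total RNA of mouse macrophages was measured on 18 arrays of 1 colour. The deposited table holds log2 values that the authors made with RMA, per the submitters' processing notes; the version of RMA and how probes were set together are not stated in the sources here. RMA corrects background, summarises probes and gives every array the same distribution, so depth does not apply and the number of arrays limits the precision. The table has 25428 rows; 24705 with a single gene symbol in the platform annotation, updated through RefSeq, were tested, and 723 without a symbol were not. Group means of WT, ApoE, AS1 and AS2 were fitted together with limma 3.58.1 in R 4.3.3 (14 residual degrees of freedom), two-sided, with Benjamini-Hochberg adjustment over all rows and a threshold of 0.05; an adjusted p in the text is this one. Errors of differences are limma's standard errors.

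The gene lists and the naming rule were chosen with earlier results of these data known. Of 964 listed genes 56 had no matching row and are not analysed here. Named are the 15 largest increases and decreases whose WT and AS2 arrays do not overlap, the 5 members with the smallest p in each list (2 where fewer than 3 passed), and genes picked for the topic; other members were named after their values were seen, among them those that moved against their list. Simulated data over 24705 rows had independent normal noise, with each row's spread within groups taken over all 18 arrays. There limma recovered 87 of 100 changes of 0.5, 50 of 50 of 1 and 50 of 50 of 2, and 5.08% of its calls were false. All other simulated rows held no change and rows were not correlated, so these shares do not carry over to the measured comparison. Alternatives covered row filters, rescaling, variance models, array weights, the groups entering the fit, a replicate block and each array left out.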

Additional observations from a re-analysis of the deposited data

Results flagged for a closer look

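The 224 genes chosen by the naming rule were tested, with 4 WT and 6 AS2 arrays each. In 22 of 448 groups (4.91%) the highest or lowest array lay apart from the others by Dixon's criterion. Chance flags about 1 in 20 groups. Values are log2, with the range of the group's other arrays in parentheses. AS2 replicate 1 stood apart in Il1b at 4.10 (below 4.65 to 4.83), Lcn2 at 9.92 (below 10.63 to 10.77), Rpl8 at 10.32 (below 10.42 to 10.45) and Vwf at 5.56 (below 5.98 to 6.11). AS2 replicate 2 stood apart in Cd180 at 11.55 (below 11.60 to 11.63) and Cd86 at 7.33 (above 6.83 to 6.99). AS2 replicate 3 stood apart in Asns at 8.60 (above 8.38 to 8.45). AS2 replicate 4 stood apart in Anln at 8.78 (above 8.63 to 8.67). AS2 replicate 5 stood apart in Ctsh at 9.84 (below 10.05 to 10.13). AS2 replicate 6 stood apart in Slc39a4 at 5.00 (above 4.62 to 4.76). WT replicate 1 stood apart in Cd36 at 12.48 (below 12.51), Ndc80 at 5.64 (below 6.33 to 6.41) and Pdia4 at 9.34 (below 9.47 to 9.48). WT replicate 2 stood apart in Atp6v1b2 at 11.34 (above 11.21 to 11.24), Dcstamp at 5.24 (above 4.87 to 4.93), Fcgr1 at 10.67 (below 10.79 to 10.80), Stab2 at 5.72 (above 4.99 to 5.09) and Traf1 at 6.01 (above 5.51 to 5.59). WT replicate 3 stood apart in Blnk at 9.21 (above 9.05 to 9.07). WT replicate 4 stood apart in Atp5b at 10.73 (below 10.84 to 10.86), Cxcl16 at 11.10 (above 11.01) and Rpl8 at 10.13 (below 10.21 to 10.22).

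Rows without a gene symbol form no part of the comparison, and 155 of these 723 rows (21.4%) passed the threshold between AS2 and WT plasma, 77 higher and 78 lower. They were tested only to count them, and their genes are not named here.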

How the results depend on the processing

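The main counts of rows, 2137 higher and 2272 lower with AS2 than with WT plasma, kept within 1.5 times under each alternative run. Among the 224 genes chosen by the naming rule no difference changed sign. Members named after their values were seen were not part of that check. The counts were 2214 and 2354 with unnamed rows included, 2133 and 2345 for rows above the 40th percentile of row means, 2136 and 2272 after requantiling, 2132 and 2278 after median centring, 2068 and 2197 with a trended and robust variance, 2223 and 2543 with array weights, 2374 and 2608 for the 2 compared groups alone, and 2329 and 2525 without all ApoE arrays. Without ApoE replicates 2 and 5, an alternative added after seeing the data, they were 2319 and 2529. Leaving out each WT or AS2 array in turn gave 1874 to 2079 higher and 1903 to 2188 lower rows and 428 to 454 at least 2-fold. Single ApoE or AS1 arrays were not left out for this comparison. With each array of the compared groups left out, rows past the threshold were 3493 to 3843 against ApoE and 4329 to 5501 against AS1 plasma. Same-numbered AS2 and WT arrays did not deviate together (r of -0.137, 0.0158, 0.0851 and 0.1217), so the numbers are not taken as pairs. With a replicate block 1943 rows were higher and 2035 lower. Of the 224 genes 3 lost the threshold there in limma, Kitl (0.33, adjusted p = 0.0745), Cfb (-0.15, adjusted p = 0.0956) and Rpl27a (0.33, adjusted p = 0.125). Under the filter on low rows the median of histones rose to 0.95, and those of LXR targets, complement genes and C-type lectins became 0.18, -0.52 and -0.32, since low rows left the lists. With the 2 compared groups alone 7 integrin subunits were lower instead of 4. Over the 224 genes and the settings, 4674 differences stayed on their side of the threshold and 25 lost it. The cause was not tested. A gene not called is not shown to be equal between the plasmas.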
